A study of Mus musculus with 5 samples.

Results

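The pancreatic elastases and carboxypeptidases are protein-digesting enzymes that the acinar cells of the pancreas store in granules and release into the gut. They are described here through 6 genes, chosen by symbol, of the 55573 in the deposited table: the elastases Cela1, Cela2a, Cela3a and Cela3b and the carboxypeptidases Cpa1 and Cpb1. RNA sequencing measured them in 3 tumours from mice of the genotype Th-Cre:MYC and in 2 samples of normal pancreas from Wild Type littermates. The tumour-bearing mice came from a cross of TH-Cre animals with animals carrying CAG-STOPflox/flox-MYC, in which Cre recombinase lifts a transcriptional stop in front of a MYC transgene. Cre was driven by the promoter of tyrosine hydroxylase, a gene of catecholamine-making cells and not of acinar cells. The series title speaks of a neuroblastoma model, while its design text calls the tumours pancreas tumours and asks how their expression differed from that of normal pancreas. The normal pancreas was perfused with RNAlater before removal, and perfusion of the tumours was not stated. Age and sex were not given, nor whether any tumours came from 1 animal.

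Elastases are serine proteases, some cutting after small uncharged residues, and the carboxypeptidases are zinc metallopeptidases that remove single residues from the C-terminal end. All are made as inactive precursors and are switched on by trypsin in the gut lumen. Their genes are classical targets of the acinar PTF1 complex, which holds Ptf1a and Rbpjl and binds paired E-box and TC-box elements. Cela1 is the classical pancreatic elastase 1 of rodents, and human acinar cells hardly use the orthologous gene. Proteins of the Cela3 type cut elastin poorly despite their name. Cpa1 prefers aromatic and branched aliphatic ends, and Cpb1 prefers lysine and arginine ends.

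On GRCm38, with the GENCODE M21 annotation, the members lie on 4 chromosomes. Cela3a (ENSMUSG00000078520.3) covers chr4:137401554-137409791 and Cela3b (ENSMUSG00000023433.8) covers chr4:137420999-137430540, both on the minus strand and 11.2 kb apart. Cela2a (ENSMUSG00000058579.5) lies on the same chromosome at chr4:141814962-141826160, minus strand, where it overlaps Ctrc, the gene of chymotrypsin C, on its own strand and Casp9 on the other. Cela1 (ENSMUSG00000023031.8) covers chr15:100674421-100687921 and Cpb1 (ENSMUSG00000011463.5) covers chr3:20248264-20275733, both on the minus strand. Cpa1 (ENSMUSG00000054446.8) covers chr6:30639218-30645363 on the plus strand, at the end of a cluster of carboxypeptidase A genes. The longest annotated transcript has 8 exons in each elastase, 10 in Cpa1 and 11 in Cpb1.

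Stretches just before the RefSeq start of 4 members are shown, because the Cela3 pair is hard to tell apart by reads and because Cela1 kept the largest share of its normal counts in tumours 1 and 2, where Cpa1 kept one of the smaller ones. The sequences are RefSeq's on GRCm38.p6, read 5′ to 3′ on the gene's strand, and bases that lie inside a GENCODE transcript were left off (20 in Cela3b and 1 in Cela1). Capitals mark an E-box (CANNTG) or the TC-box core (TGGGAA), each searched on both strands; none of the marked matches overlaps another.
Cela3a (chr4:137409792-137410041, minus strand): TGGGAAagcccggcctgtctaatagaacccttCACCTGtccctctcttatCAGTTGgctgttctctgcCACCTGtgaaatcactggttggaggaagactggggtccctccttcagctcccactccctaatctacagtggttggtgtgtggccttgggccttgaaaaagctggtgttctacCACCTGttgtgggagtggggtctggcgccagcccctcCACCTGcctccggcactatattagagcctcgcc
Cela3b (chr4:137430541-137430770, minus strand): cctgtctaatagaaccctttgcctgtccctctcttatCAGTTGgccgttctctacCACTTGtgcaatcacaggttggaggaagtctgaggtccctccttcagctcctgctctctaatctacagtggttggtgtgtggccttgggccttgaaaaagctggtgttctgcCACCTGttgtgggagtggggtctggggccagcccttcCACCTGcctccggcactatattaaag
Cela1 (chr15:100687922-100688170, minus strand): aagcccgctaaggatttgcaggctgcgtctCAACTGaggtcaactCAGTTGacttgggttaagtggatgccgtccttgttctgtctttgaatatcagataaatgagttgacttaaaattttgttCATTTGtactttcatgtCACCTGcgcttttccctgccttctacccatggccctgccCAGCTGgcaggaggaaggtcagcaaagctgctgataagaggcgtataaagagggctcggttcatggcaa
Cpa1 (chr6:30638968-30639217, plus strand): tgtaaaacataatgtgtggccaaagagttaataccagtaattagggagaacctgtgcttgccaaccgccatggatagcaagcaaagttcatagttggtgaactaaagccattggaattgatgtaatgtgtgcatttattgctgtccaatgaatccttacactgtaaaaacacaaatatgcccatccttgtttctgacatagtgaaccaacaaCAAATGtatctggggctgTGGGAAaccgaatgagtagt
Over 250 bases before the start, CANNTG was found before 6 of 6 members and in 66.2% of 32851 windows of the same length. TGGGAA was found before Cela3a, Cela2a and Cpa1, and in 21.6% of those windows. Both motifs together were found before the same 3 genes and in 14.8% of the windows. In the Cela2a window, 155 of the 250 bases lie inside a GENCODE transcript, and its TGGGAA lies in that part. The letters TATAAA occurred before Cela1 alone, 27 bases ahead of its start, and in 12.4% of the windows. In an alignment of the 250-base windows, Cela3a and Cela3b had the same base at 217 of 237 aligned positions (91.6%). The TGGGAA of Cela3a stands at the far end of its window, beyond what the Cela3b window covers. These matches describe letters in a window and say nothing about binding.

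Library totals were 15074489, 12601496 and 6611967 estimated counts in tumours 1, 2 and 3, against 48848987 and 51669489 in normal pancreas 1 and 2. Genes annotated as misc_RNA took 22% to 25.3% of the tumour counts and at most 0.00116% of the normal counts, and their part in the results was not tested. The TMM factors, which correct library size for RNA composition, were 2.19 to 2.57 in the tumours and 0.263 to 0.271 in normal pancreas. The normal libraries carried their label's markers: the 9 acinar markers that are not members summed to 29.1, 4.51 and 801 CPM (counts-per-million) of the library total in tumours 1, 2 and 3, against 195539 and 194302 CPM in normal pancreas 1 and 2. The sum of the 11 islet endocrine markers went the other way, with 64366, 28348 and 47034 CPM of the total in tumours 1, 2 and 3. It was 18.3 and 19.1 CPM in normal pancreas 1 and 2. Sst made up most of the tumour sums, with 688913, 240999 and 216222 counts in tumours 1, 2 and 3. Ins1 and Ins2 were called neither higher nor lower with TMM scaling. With library totals only, Ins1 was called higher and Ins2 did not pass.

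The 6 genes were nearly absent from the tumour libraries. They held 656, 172 and 5610.71 estimated counts in tumours 1, 2 and 3, against 9366038 and 9599476 in normal pancreas 1 and 2. As a share of all counts this was 0.00435%, 0.00136% and 0.0849% in the tumours, against 19.2% and 18.6% in normal pancreas. The share averaged 0.0302% ± 0.0474 in tumours (SD, n = 3) and 18.9% ± 0.421 in normal pancreas (SD, n = 2). Tumour 3 carried most of the tumour mean, which was 0.00286% without it. No tumour overlapped normal pancreas, and the lowest normal share stood far above the highest tumour share. In these bulk samples, fewer acinar cells and less enzyme RNA per cell cannot be told apart.

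The 4 elastases made up 0.00370%, 0.00119% and 0.0383% of counts in tumours 1, 2 and 3, against 12% and 11.2% in normal pancreas 1 and 2. The 2 carboxypeptidases made up 0.000650%, 0.000175% and 0.0465% of counts in the tumours, against 7.17% and 7.36% in normal pancreas. Elastase counts exceeded carboxypeptidase counts by 5.69 and 6.82 times in tumours 1 and 2, but stood at 0.823 of them in tumour 3, against 1.67 and 1.52 times in normal pancreas 1 and 2. The tumours therefore lay on both sides of normal pancreas in this ratio.

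**Figure D1:**
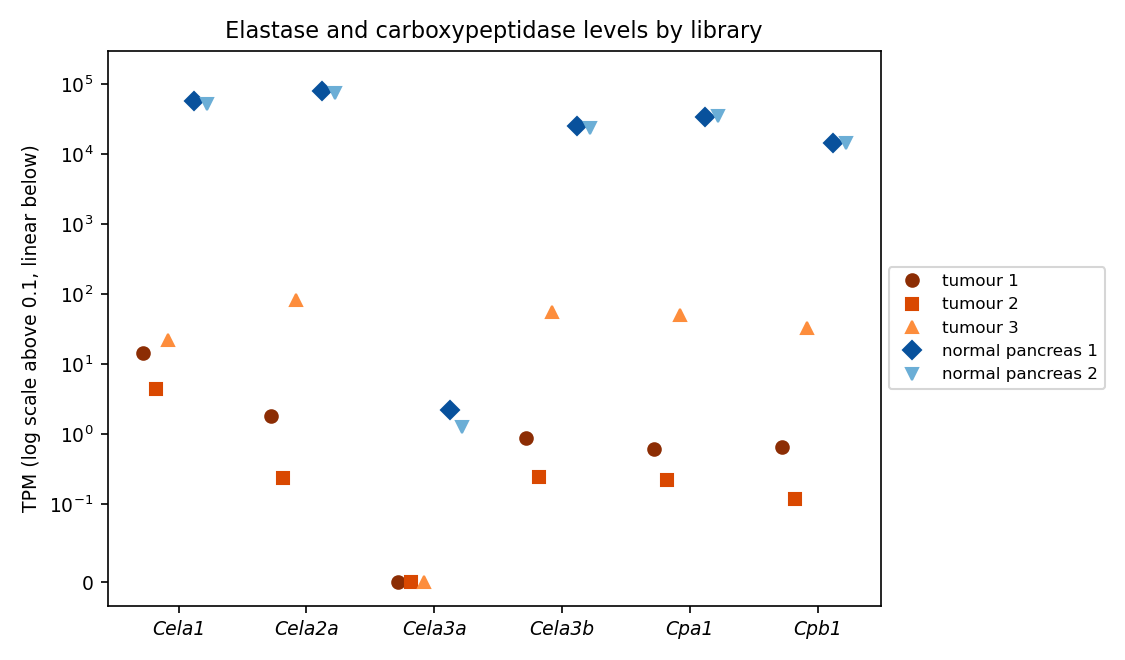
TPM (y axis, log scale above 0.1 and linear below) of the 6 genes (x axis) in each of the 3 tumour and 2 normal pancreas libraries, 1 point per library. The tumour points of Cela1 lie between 4.4 and 21.95 TPM, while those of the other genes spread more widely with tumour 3 on top, and Cela3a is at 0 in all 3 tumours.

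Cela1 was the member with the most even tumour levels. It had 14.55, 4.4 and 21.95 TPM (a level corrected for transcript length) in tumours 1, 2 and 3, against 58440.05 and 52142.44 TPM in normal pancreas 1 and 2. All tumours lay far below both normal libraries. On counts scaled by TMM, Cela1 fell by 13.40 on the log2 scale in tumours relative to normal pancreas (SE 2.44, adjusted p = 0.00340, edgeR quasi-likelihood test). RSEM's effective length for Cela1, which follows the mix of its 9 annotated transcripts, was 777, 798 and 874 bases in tumours 1, 2 and 3, against 866 and 867 bases in normal pancreas 1 and 2.

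Cela2a encodes elastase 2A and was the most abundant member in normal pancreas. It had 1.83, 0.24 and 83.75 TPM in tumours 1, 2 and 3, against 79221.19 and 74428.1 TPM in normal pancreas 1 and 2. Tumour 3 stood well above the other tumours, and still far below normal pancreas. Its log2 fold change was -12.79 (SE 3.68, adjusted p = 0.0205, edgeR). Part of the reads can be shared with Ctrc on the same strand, since the fractional values of the genes in tumour 3 (1284.71 and 3.29) sum to 1288 whole counts. The strand setting of the counting was not given, and Casp9 on the opposite strand had 156, 100 and 54 counts in tumours 1, 2 and 3 and 92 and 90 in normal pancreas 1 and 2. The Cela2a counts of tumours 1 and 2 were 54 and 8, and whether Casp9 reads are among them was not tested.

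Cela3b had 0.9, 0.25 and 55.53 TPM in tumours 1, 2 and 3, against 25175.03 and 23896.52 TPM in normal pancreas 1 and 2. Tumour 3 was again the highest tumour. The log2 fold change was -11.61 (SE 3.03, adjusted p = 0.0142, edgeR). In tumours 1 and 2 this level rested on 28 and 7 counts.

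Cela3a, the near-identical neighbour of Cela3b, was listed at 0 TPM in all 3 tumours, against 2.2 and 1.27 TPM in normal pancreas 1 and 2, where it was barely expressed too. Its counts were 0, 0 and 0 in tumours 1, 2 and 3, against 75.52 and 46.45 in normal pancreas 1 and 2. A group at 0 allows only a bound: with a floor of 3 counts over the tumour group, Cela3a was at least 128-fold lower in tumours on TMM-scaled counts, and at least 13.9-fold lower per library total. On TMM-scaled counts the bound was 70.9-fold without tumour 1 and 79.0-fold without tumour 2, and per library total 7.77-fold and 8.77-fold. Cela3a was called lower (adjusted p = 0.000685, edgeR), and passed the filter on low counts narrowly, at 0.899 CPM of the total in its lower normal library against a minimum of 0.663. It passed through the normal libraries alone, with 0 counts in every tumour, so its call follows in part from the filter.

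The values of Cela3a are uncertain because the pair shares reads. The transcripts numbered first in GENCODE matched at 866 of 916 aligned bases (94.5%), and 34.2% of the 50-base windows of the Cela3a transcript also occur in that of Cela3b (12.1% of 100-base windows). The fractional counts of the pair sum to 829964 and 839208 whole counts in normal pancreas 1 and 2, as they do where RSEM splits reads between genes. Cela3b exceeded Cela3a by 11443 and 18816 times in TPM in normal pancreas 1 and 2. At the mean normal ratio, the 854 Cela3b counts of tumour 3 would come with 0.0625 Cela3a counts, so a Cela3a level that kept its normal ratio to Cela3b was not detectable at this depth.

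Cpa1, which encodes carboxypeptidase A1, had 0.61, 0.22 and 49.9 TPM in tumours 1, 2 and 3, against 34531.41 and 35346.18 TPM in normal pancreas 1 and 2. The normal libraries were close together, and the tumours were spread widely below them. The log2 fold change was -12.22 (SE 3.49, adjusted p = 0.0198, edgeR). Cpb1, which encodes carboxypeptidase B1, had 0.67, 0.12 and 33.05 TPM in tumours 1, 2 and 3, against 14494.4 and 14655.9 TPM in normal pancreas 1 and 2. It had the lowest normal level of the abundant members, and its tumours held the same order as those of Cpa1. The log2 fold change was -11.53 (SE 3.27, adjusted p = 0.0193, edgeR).

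All 6 members were called lower, in a comparison that called 27.8% of the 16810 tested genes lower in tumour and 39.2% higher. The call of Cela3a carries little weight there, since it passed the filter through the normal libraries alone. Every member also had all 3 tumours below both normal libraries in TMM-scaled CPM, as did 34.2% of the tested genes. The median log2 fold change was -11.91 over the members, also with Cela3a at its bound, and 0.38 over all tested genes. With library totals as the only scaling, the median over all tested genes moved to 3.55 and the calls to 398 lower (2.37%) and 15681 higher (93.3%). The 6 members were called lower there too, with log2 fold changes from -10.28 for Cela1 to -8.49 for Cpb1 among the 5 with tumour counts. Their direction was thus the same under both scalings.

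Leaving out single tumours changed some of the calls and some of the fold changes. Without tumour 1, 3 of 6 members were called lower (28.2% of genes tested there): Cela2a, Cpa1 and Cpb1 missed the threshold, at adjusted p = 0.0732, 0.0607 and 0.0556 (edgeR). Their log2 fold changes without tumour 1 were -12.22, -11.64 and -10.96, close to those with all libraries. Without tumour 3, the log2 fold changes were -17.89 for Cela2a, -16.91 for Cela3b, -17.80 for Cpa1 and -16.78 for Cpb1, against -14.17 for Cela1. DESeq2 called the 2 members to which it gave a p-value, Cela1 and Cela3a (23.4% of genes it tested were called lower). Its outlier filter left Cela2a, Cela3b, Cpa1 and Cpb1 without one, and 6 of 6 were called lower with that filter off, a setting added after the data were seen.

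**Figure D2:**
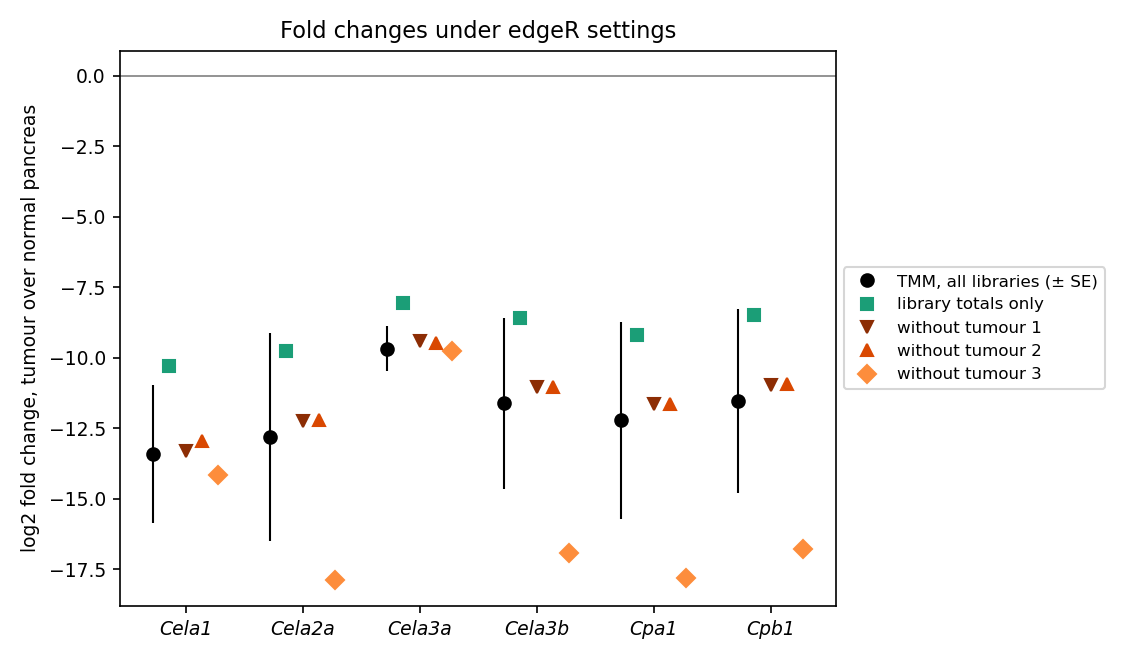
Log2 fold change of tumour over normal pancreas (y axis) for the 6 genes (x axis), with all libraries and TMM scaling (black, ± SE), with library totals only, and without each tumour in turn. Leaving out tumour 3 moves Cela2a, Cela3b, Cpa1 and Cpb1 to between -17.89 and -16.78, and Cela1 to -14.17.

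The order of the levels differed between tissues and between tumours. In both normal libraries TPM ran from Cela2a at the top through Cela1, Cpa1, Cela3b and Cpb1 to Cela3a. In tumours 1 and 2 Cela1 came first, and the next member was Cela2a at 1.83 TPM in tumour 1 and Cela3b at 0.25 TPM in tumour 2. In tumour 3 Cela1 stood above Cela3a alone, and Cela2a led as in normal pancreas. Below Cela1 the levels in tumour 2 rested on 7 to 12 counts per gene, so the order of Cela3b, Cela2a, Cpa1 and Cpb1 there is within counting error.

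Seen as a share of the counts of the 6 genes, Cela1 made up 72.6%, 78.5% and 7.04% in tumours 1, 2 and 3, against 23.3% and 21.5% in normal pancreas 1 and 2. The tumours thus lay on both sides of normal pancreas, and the group means did not separate (p = 0.4, two-sided exact permutation test over 10 splits, whose smallest p is 0.1). Cela2a made up 8.23%, 4.65% and 22.9% in the tumours and 30.4% and 30.1% in normal pancreas (p = 0.2, same exact test), with no overlap between groups. Cpa1 made up 5.49%, 6.98% and 25.3% in the tumours and 21.7% and 23.0% in normal pancreas (p = 0.4, same exact test). Tumours 1 and 2 lay below normal pancreas for Cpa1, and tumour 3 above it. Cpb1 made up 9.45%, 5.81% and 29.5% in the tumours and 15.7% and 16.6% in normal pancreas (p = 1, same exact test). Cela3b made up 4.27%, 4.07% and 15.2% in the tumours and 8.86% and 8.74% in normal pancreas (p = 1, same exact test). Tumour 3 exceeded normal pancreas in Cpb1 and Cela3b, and tumours 1 and 2 were below it in both.

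**Figure D3:**
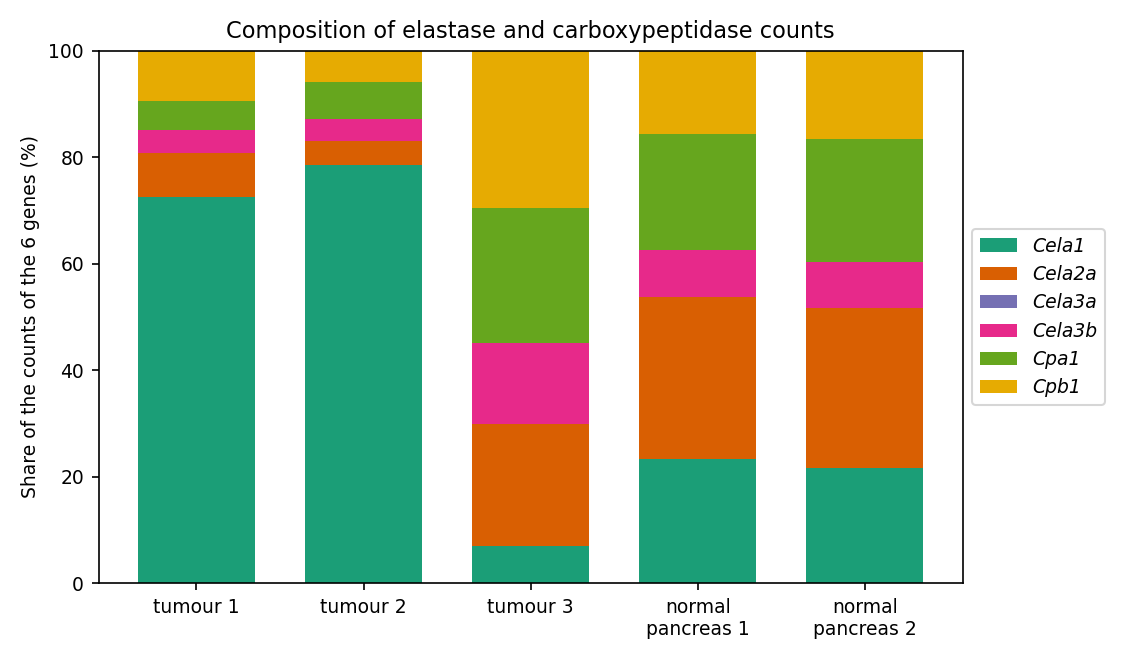
Share of the counts of the 6 genes taken by each gene (stacked, y axis in percent) in the 3 tumour and 2 normal pancreas libraries (x axis). Cela1 fills 72.6% and 78.5% of the bars of tumours 1 and 2 and 7.04% of that of tumour 3, while the normal bars are nearly alike; Cela3a is too small to be seen.

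How much of each gene remained depends on the scaling, and is given first per library total, as its share of counts in a tumour over its mean share in normal pancreas. Cela1 stood at 0.0745% of normal in tumour 1, 0.0253% in tumour 2 and 0.141% in tumour 3. The 95% exact intervals, which cover counting error only, were 0.0679% to 0.0815%, 0.0212% to 0.0299% and 0.127% to 0.156%. The 3 tumours thus differed beyond counting error, in a gene where they were closest to each other. Cpb1 stood at 0.0135%, 0.00260% and 0.820% of normal in tumours 1, 2 and 3, and Cela3b at 0.0112%, 0.00334% and 0.777%. Cpa1 stood at 0.00567%, 0.00226% and 0.511%, and Cela2a at 0.00627%, 0.00111% and 0.340%. On TMM-scaled CPM the remainders were much smaller, at 0.00797%, 0.00263% and 0.0172% of normal for Cela1 in tumours 1, 2 and 3. The other 4 members with tumour counts lay on that scale between 0.000606% and 0.00144% in tumour 1, between 0.000116% and 0.000348% in tumour 2 and between 0.0416% and 0.10% in tumour 3. Cela1 had the largest remainder of the 5 in tumours 1 and 2 and the smallest in tumour 3. This order hardly depends on the scale, since TMM applies a single factor to all genes of a library. For Cela3a, 0 counts allow up to 0.199, 0.238 and 0.454 CPM of the total in tumours 1, 2 and 3, against 1.55 and 0.899 measured in normal pancreas 1 and 2.

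The abundant acinar enzymes outside the members showed a like spread between tumours. Over the 10 other acinar enzymes, among them the lipases and amylases, the median share was 0.00901%, 0.00171% and 0.278% of normal in tumours 1, 2 and 3. Over the 6 members, Cela3a at 0 included, it was 0.00873%, 0.00243% and 0.425%. Tumour 3 also had the highest sum of acinar markers of the 3 tumours, on 6611967 counts in all, the smallest library. Whether residual acinar tissue in the sample accounts for its values was not tested.

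**Figure D4:**
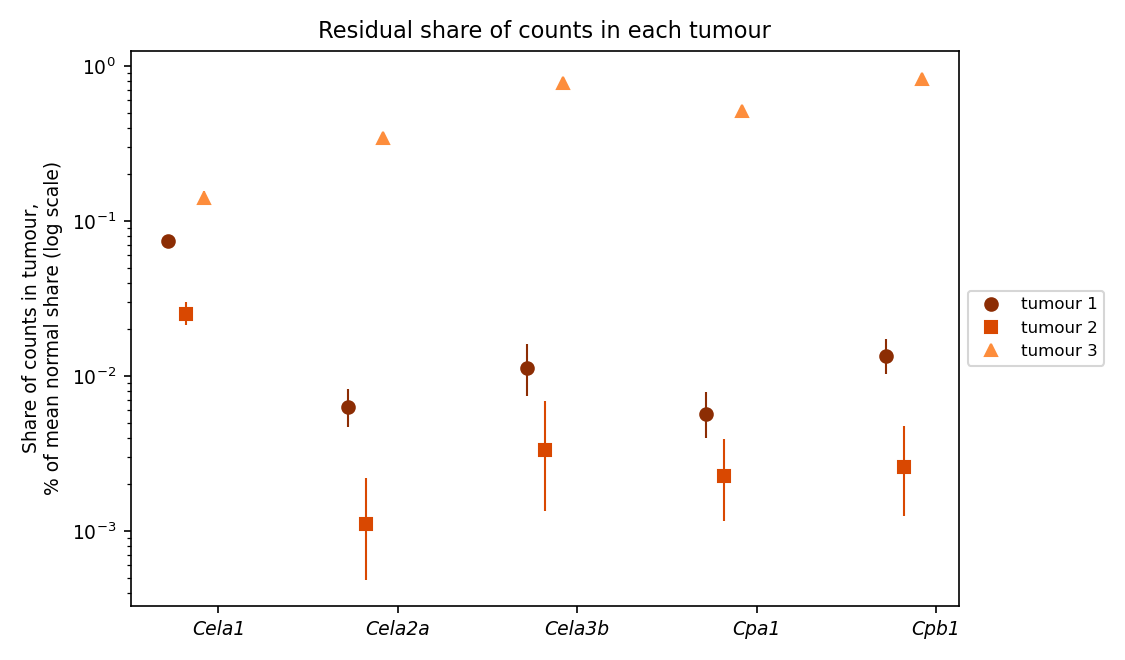
Share of counts in each tumour as a percentage of the mean share in normal pancreas (y axis, log scale) for the 5 members with counts (x axis), with 95% exact intervals for counting error. Tumour 3 exceeds tumours 1 and 2 by far for Cela2a, Cela3b, Cpa1 and Cpb1, and less so for Cela1.

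Ratios between members within a library need no scaling at all, and 10 were formed from the 5 members with counts in every library. Cela2a over Cela3b was 1.93, 1.14 and 1.5 in tumours 1, 2 and 3, against 3.43 and 3.44 in normal pancreas 1 and 2. Cela2a over Cpb1 was 0.871, 0.80 and 0.776 in the tumours, against 1.93 and 1.81 in normal pancreas. Both ratios were lower in every tumour than in normal pancreas, though that to Cela3b in tumour 2 is 8 over 7 counts. Cela2a over Cpa1 was 1.5, 0.667 and 0.903 in the tumours, against 1.40 and 1.31 in normal pancreas, and the groups overlapped. Cela3b over Cpa1 was 0.778, 0.583 and 0.601 in the tumours, against 0.409 and 0.380 in normal pancreas. For Cela2a over Cela3b, Cela2a over Cpb1 and Cela3b over Cpa1 the exact permutation test gave p = 0.1, the smallest it can reach, and p = 0.333 after adjustment over the 10 ratios. Cpa1 over Cpb1 was 0.581, 1.20 and 0.859 in the tumours, against 1.378 and 1.381 in normal pancreas (exact permutation p = 0.2, adjusted p = 0.5). Cela3b over Cpb1 was 0.452, 0.700 and 0.516 in the tumours, against 0.563 and 0.525 in normal pancreas, and the groups overlapped. Several of the tumour ratios rest on 7 to 62 counts per gene in tumours 1 and 2, so the ratios of tumour 3, with 854 counts or more in Cela2a, Cela3b, Cpa1 and Cpb1, rest on the most.

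Neighbours of Cpa1 on chromosome 6 had at most 1 count in each normal library, so a fall could not have been seen in them. Cpa4 and Cpa5 encode further carboxypeptidases of the A type and lie 46.8 and 7.47 kb from Cpa1. Cpa4 had 0.43, 0.09 and 0.17 TPM in tumours 1, 2 and 3, against 0.01 and 0.01 TPM in normal pancreas 1 and 2. It was called higher in tumour (adjusted p = 0.0280, edgeR), on 64 tumour and 2 normal counts, a ratio of 10.2 on TMM-scaled sizes with a 95% exact counting interval of 2.7 to 85.8. Cpa5 had 1.31, 0.05 and 0.4 TPM in the tumours and 0 and 0.01 TPM in normal pancreas, and did not pass (adjusted p = 0.0562, edgeR), on 119 tumour counts against 1 normal count. Cpa4 and Cpa5 were both called higher with library totals only, as were 93.3% of all tested genes. Cpa4 and Cpa5 were named for their place in the cluster, after their values were seen.

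Carboxypeptidases outside the digestive set, most of them of the same zinc peptidase family as Cpa1 and Cpb1, did not follow them. Of 14 listed, 12 were tested, 6 were higher in tumour, 1 was lower and 5 did not pass. Over all tested genes, 39.2% were higher and 27.8% lower. Cpe, which trims peptide hormones in neuroendocrine cells, had 315.96, 213.02 and 252.94 TPM in tumours 1, 2 and 3, against 1.19 and 1.74 TPM in normal pancreas 1 and 2 (log2 fold change 6.32, SE 0.33, adjusted p = 3.36e-05, edgeR). Cpe was thus above every member in all 3 tumours and near the level of Cela3a in normal pancreas. Cpxm2, a family member thought to lack enzyme activity, rose by 4.16 on the log2 scale, and Cpq, a dipeptidase of another family, by 2.06. Cpn1, a plasma enzyme, was the lower one at -1.15, and was called higher, at 2.02, with library totals only. There 12 of 12 were higher, as were 93.3% of all tested genes. Cpa3 of mast cells had 9, 8 and 2 counts in tumours 1, 2 and 3 and 17 and 13 in normal pancreas 1 and 2, and was not tested.

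Elastase activity in tissue can also come from other proteases. Of 6 such genes, 2 were tested, and Htra1 was lower at -1.81 with TMM scaling and higher at 1.38 with library totals only. Mmp12, macrophage metalloelastase, had 7.09, 1.78 and 1.31 TPM in tumours 1, 2 and 3, against 0.07 and 0.05 TPM in normal pancreas 1 and 2, and rose by 4.44 on the log2 scale (SE 0.91, adjusted p = 0.00542, edgeR). Elane, the neutrophil elastase, was listed at 0 in all 5 libraries, as was Ctsg.

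Most of the other pancreatic proteases fell with the members. Of 10 listed, 8 fell, none rose, and Prss1 and Prss3, trypsinogen genes of a family that shares reads, did not pass (log2 fold changes -3.13 and -5.72, adjusted p = 0.114 and 0.0615, edgeR). Prss1 had 0.08, 0 and 5.4 TPM in tumours 1, 2 and 3, against 5.45 and 5.48 TPM in normal pancreas 1 and 2. In tumour 3 the share of counts was 337% of normal for Prss1 and 47.3% for Prss3. With library totals only, their log2 fold changes were 0.06 and -2.69, and neither passed. The median log2 fold change of the 10 proteases was -10.43, against 0.38 over all tested genes. Ctrc, which helps to activate and degrade the digestive zymogens, had 0, 0.04 and 0.27 TPM in tumours 1, 2 and 3, against 168.43 and 163.55 TPM in normal pancreas 1 and 2. Ctrb1, a chymotrypsinogen, had 5.33, 1.36 and 458.39 TPM in the tumours, against 100171.94 and 103661.02 TPM in normal pancreas, and fell by 10.62 on the log2 scale (SE 3.62, adjusted p = 0.0373, edgeR). The 10 other acinar enzymes fell in 10 of 10 cases, with a median of -13.13, and their smallest p-values belonged to the amylase Amy2b, the kallikrein Klk1 and the phospholipase Pla2g1b.

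Among activators and inhibitors of these enzymes, 9 of the 12 listed were tested: 5 were lower, 3 were higher and 1 did not pass, and with library totals only 3 were lower and 5 higher. Lxn encodes latexin, an inhibitor of A-type carboxypeptidases. It had 2.03, 2.04 and 1.04 TPM in tumours 1, 2 and 3, against 8.68 and 8.51 TPM in normal pancreas 1 and 2. Its log2 fold change was -3.82 (SE 0.20, adjusted p = 3.47e-05, edgeR), and -0.64 with library totals only, where it did not pass (adjusted p = 0.0840). Spink1, the acinar trypsin inhibitor, had 0.04, 0 and 25.33 TPM in the tumours, against 1232.6 and 1078.01 TPM in normal pancreas, and fell by 8.41 (SE 2.45, adjusted p = 0.0213, edgeR). Serpina1a, an antitrypsin that inhibits elastases, had 43.46, 23.69 and 18.55 TPM in the tumours, against 0 and 0.05 TPM in normal pancreas, and rose (adjusted p = 9.62e-05, edgeR), though its near copies share reads. It had 3670 tumour and 2 normal counts, a ratio of 583 with a counting interval of 161 to 4816. Tmprss15, the gut enzyme that activates trypsinogen, was listed at 0 in all 5 libraries.

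The regulators of acinar genes were lower as well. Of 8 transcription factors tested, 7 were lower and 1 did not pass, and with library totals only 5 were lower and 2 higher. Ptf1a had 0, 0 and 0.15 TPM in tumours 1, 2 and 3, against 24.33 and 26.33 TPM in normal pancreas 1 and 2 (log2 fold change -11.01, SE 0.71, adjusted p = 6.03e-05, edgeR). Its counts were 0, 0 and 4 in the tumours, against 1413 and 1625 in normal pancreas. Its partner Rbpjl had 0.01, 0 and 0.66 TPM in the tumours, against 19.22 and 19.08 TPM in normal pancreas, a log2 fold change of -7.83 (SE 1.29, adjusted p = 0.00221, edgeR). Tumour 3, where Cela1, Cela2a, Cela3b, Cpa1 and Cpb1 all had their highest tumour TPM, was also the highest tumour for both PTF1 genes. That order rests on 0, 0 and 4 counts of Ptf1a and 2, 0 and 35 counts of Rbpjl in tumours 1, 2 and 3. Bhlha15, which shapes the secretory machinery, had 3.47, 3.77 and 1.69 TPM in the tumours, against 29.32 and 29.12 TPM in normal pancreas, and fell by 4.75 (SE 0.28, adjusted p = 4.68e-05, edgeR). Nr5a2, a nuclear receptor of acinar cells, fell by 6.67. Gata4 fell too (adjusted p = 4.60e-05, edgeR), to 0, 0 and 0.13 TPM in the tumours, against 10.66 and 10.28 TPM in normal pancreas. Its tumour counts were 0, 0 and 3. Ptf1a and Gata4 passed the filter on low counts through the normal libraries alone, so their calls follow in part from the filter.

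Secretory partners of the enzymes, from granule proteins to the cholecystokinin receptor Cckar, were lower in 11 of 11 cases, with a median of -10.34, and in 9 of 11 with library totals only. Rab3d, a granule GTPase, had 8.87, 9.41 and 8.81 TPM in tumours 1, 2 and 3, against 34.25 and 36.14 TPM in normal pancreas 1 and 2, and did not pass with library totals only (log2 fold changes -3.32 and -0.15, adjusted p = 3.42e-05 and 0.330, edgeR).

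The genes with the profile most like the mean of the 6 members over the 5 libraries were acinar secretory genes. Among 2052 genes with a mean log2 CPM of 5 or more, the root mean square difference of centred log2 values was smallest for Pnliprp2, a lipase-related enzyme, at 0.37. Gp2, the granule membrane glycoprotein, followed at 0.40, Sycn at 0.57, Zg16 at 0.60, Cuzd1 at 0.62 and the phospholipase gene Pla2g1b at 0.78. Among the members the same difference was 0.89 for Cela3b, 1.09 for Cpb1, 1.12 for Cela1, 1.36 for Cpa1, 1.5 for Cela2a and 4.85 for Cela3a. The mean includes Cela3a, which was at 0 in every tumour and below the CPM minimum set for the outside genes, so the distances of members and outside genes are not comparable.

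Markers of other cell types moved with the members in part, and their part in the fall of the members was not tested. In TMM-scaled CPM, the 8 duct markers summed to 101, 62.7 and 129 in tumours 1, 2 and 3, against 517 and 538 in normal pancreas 1 and 2, with 4 lower and 2 higher (3 lower and 4 higher with library totals only). Of the 11 islet markers, 9 were higher and none lower. The 8 mast cell markers summed to 7.44, 8.95 and 3.60 in the tumours and 24.1 and 24.3 in normal pancreas. Kit made up most of these sums, and the other 7 summed to 0.930, 1.95 and 0.346 in the tumours and 2.27 and 1.10 in normal pancreas, with overlap. The 8 neutrophil markers, with Elane, Ctsg and Ly6g at 0 in all libraries, summed to 2.79, 2.17 and 0.900 in the tumours and 0.302 and 0.295 in normal pancreas. The 6 macrophage markers summed to 79.5, 73.2 and 55.2 in the tumours and 59.9 and 35.7 in normal pancreas, with 1 of 6, Mmp12, higher. The 7 fibroblast and stellate markers summed to 303, 545 and 476 in the tumours and 310 and 244 in normal pancreas, with 4 higher and 2 lower. Per library total instead, the duct, mast cell (Kit included), macrophage and fibroblast sums were all higher in every tumour than in either normal library. With that scaling, 93.3% of all tested genes were called higher.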

How the data were processed

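RNA from 3 tumours and 2 normal pancreas samples was sequenced. The submitters' processing notes name the tools STAR 2.7, RSEM 1.31 and Trim Galore 0.60 and the builds mm10 and GRCm38. The annotation release, read strand and RSEM settings were not given in the sources used here. Values of 3 kinds that the authors deposited were used: estimated counts per gene, in which RSEM divides reads that fit several genes, TPM values corrected for length, and the effective length of each gene in bases, a value of another kind. A deposited FPKM table was not used. The 92 spike-in rows were left out.

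Estimated counts were rounded and tested over 16810 genes with edgeR 4.0.16 in R 4.3.3 (quasi-likelihood test, TMM scaling, filterByExpr, Benjamini-Hochberg adjustment, threshold 0.05), after a check on simulated data. The SE is the absolute log2 fold change over the square root of F. Fold changes are tumour over normal pancreas, and CPM are relative to TMM-scaled library sizes unless the total is named. Shares and ratios were compared by two-sided exact permutation tests in SciPy 1.17.1, where 10 splits give a smallest p of 0.1. Alternatives used DESeq2 1.42.0, limma 3.58.1, other scalings, filters, TPM and left-out libraries. Sequences were aligned with Biopython 1.88. Gene IDs matched GENCODE M21 in 55094 of 55573 cases.

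The members and lists were chosen with earlier results of these data known. Named genes were the members, a set of related genes, up to 3 genes per list with the smallest p, and the 6 most alike genes. Others were named after their values were seen. A few genes are not reported here. Replicates did not agree within sampling noise (chi-square per degree of freedom 27.3 in normal pancreas, 37.6 to 59.0 in tumours). Nothing states that they came from separate animals, and the titles of tumours 1 and 2 share a number, so p-values reflect only how these samples vary, which may be technical. The numbers that open the column names run together within the tumours and within normal pancreas, far apart between them. Their meaning was not given, and any difference that goes with them cannot be told apart from tissue. Intervals and floors cover counting error only.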

Additional observations from a re-analysis of the deposited data

How the results depend on the processing

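Of 152 recomputed values, 143 kept their direction and their side of the threshold or moved little, 3 lost their call, 4 turned and 2 moved. Little means less than the spread between samples or, for the count of members called lower, within a fixed ratio. Members without an adjusted p in a setting are not among these values, as with Cela2a, Cela3b, Cpa1 and Cpb1 in DESeq2. The count of members called lower was 6 in the main analysis, 3 without tumour 1 and 2 with DESeq2, and leaving out each library in turn gave 3 to 6. With protein-coding genes alone it was 5 of 5 tested, since Cela3a failed the filter there (0.899 against a minimum of 0.970 CPM). The 3 lost calls, without tumour 1, were Cela2a, Cpa1 and Cpb1, at adjusted p = 0.0732, 0.0607 and 0.0556 (edgeR). These were their highest among the alternatives that gave an adjusted p. Without tumour 1, the adjusted p of Cela1, Cela3a and Cela3b was 0.0287, 0.000611 and 0.0330 (edgeR). Within the 6 genes, the tumour minus normal difference was -0.948 percentage points for Cela3b, and 0.844 without tumour 1 and 0.943 without tumour 2, with a range of -4.63 to 0.943 over left-out libraries. That of Cpb1 was -1.27, and 1.47 without tumour 1 and 3.29 without tumour 2, with a range of -8.55 to 3.29. Tumour 3 alone lies above normal pancreas in both. On the log2(TPM + 1) scale Cela3a was at -1.43 and on log2(TPM + 0.1) at -4.15, since the added value exceeds or nears its level. The tumour mean share of counts ran from 0.00286% without tumour 3 to 0.0446% without tumour 2, and was 0.0483% of protein-coding counts. No paired analysis was possible because the labels give no replicate number that the tumours and normal pancreas share. Depth limits Cela3a in all tumours and the order of the members in tumour 2, which rests on 7 to 12 counts per gene below Cela1.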
